A study of Homo sapiens with 2 samples.

Results

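The aminoacyl-tRNA synthetases and the scaffold proteins of their complex, 39 genes in all, were described in human HaCaT keratinocytes exposed to arsenic trioxide. Of these 39 genes, 34 were among the 18449 genes that a probe of the array named alone. HaCaT is a spontaneously immortalised line of skin keratinocytes. Exposed cells had been kept in 0.5 µg/ml arsenic trioxide up to passage 22, and passage control cells were carried to passage 22 without it. Per the design text, each group stands for 4 RNA preparations, described as technical replicates, on 3 arrays apiece, which makes 12 arrays per group. They were deposited merged into a single intensity with a single error for every probe in each group, which hides the spread between arrays and leaves no replicates to test. Exposure and drift cannot be told apart, because each group is 1 culture line. The genes were picked by name from this dataset when its exposed-over-control differences were already known, and those differences are therefore given as a description.

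Aminoacyl-tRNA synthetases join each amino acid to its transfer RNA, the step that sets the meaning of the genetic code. Cytosolic and mitochondrial protein synthesis mostly use separate enzymes, whose mitochondrial forms carry the suffix 2 in their gene names, while GARS and KARS encode both forms. In animal cells several cytosolic synthetases sit in a multisynthetase complex held together by the scaffold proteins AIMP1, AIMP2 and EEF1E1. When uncharged transfer RNA or other stresses activate the integrated stress response, the transcription factor ATF4 drives genes of amino acid supply and charging, which in studies mostly of mouse cells included many cytosolic synthetases.

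Cytosolic synthetases were on the whole higher in exposed cells relative to the median gene: the median log2 ratio of the 17 genes detected in both groups was 0.46. Mitochondrial synthetases lay near the median gene, at a median of 0.04 over 9 genes. MARS, the methionyl-tRNA synthetase, differed most, 2.01-fold. MARS, SARS, FARSA and FARSB were the 4 members called, all higher in exposed cells, and no member was called lower. The ratios are of deposited intensities minus the median log2 ratio of all 9915 probes detected in both groups, which was -0.43, and without that centring the median of the cytosolic genes was 0.031 and that of the mitochondrial genes -0.39. Genes were called at an adjusted p below 0.05, the p being that of the authors' deposited table after a Benjamini-Hochberg adjustment over 7681 genes. By that rule 3.11% of all genes were called higher and 2.56% lower in exposed cells, and since the genes were picked with this contrast known, nothing is read from the members' 4 of 29 with an adjusted p. In RNA from whole cultures, fewer cells of a type and less RNA per cell cannot be told apart.

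Of the 39 genes, 34 had a probe of their own, and 27 of these were detected in both groups at a detection p-value below 0.05. GARS and AARS2 were detected in exposed cells alone. CARS, EARS2, FARS2, LARS2 and NARS2 were detected in neither group, with intensities from 5.20 to 38.0 in exposed cells and from 9.50 to 39.4 in control cells, below the lowest detected intensities of 54.4 and 81.7. KARS, MARS2 and EEF1E1 were read only by probes that also name a clone-based transcript. SARS2 shared its probes with its neighbour FBXO17, and no probe named AIMP2. The label of the cells was borne out by keratinocyte markers, of which 7 of 8 had a probe of their own and all 7 were detected, including KRT5 and TP63. None of the 7 passed the adjusted p, and 1, KRT16, had an unadjusted p below 0.05 in the authors' deposited table. Of 13 melanocyte, fibroblast and leukocyte markers, 12 had a probe of their own, 4 were detected in both groups, COL1A2 in exposed cells alone, and CD14 was the only one called, with a log2 ratio of -0.70 ± 0.18. PMEL, of melanocytes, read 233 in exposed and 317 in control cells, and the fibroblast markers COL1A1 and LUM read 146 against 214 and 204 against 396. None of these 3 was called. PTPRC and CD3E of leukocytes, MLANA and DCT of melanocytes and COL3A1 and DCN of fibroblasts were not detected in either group. Any part of such cells in the results below was not tested.

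**Figure D1:**
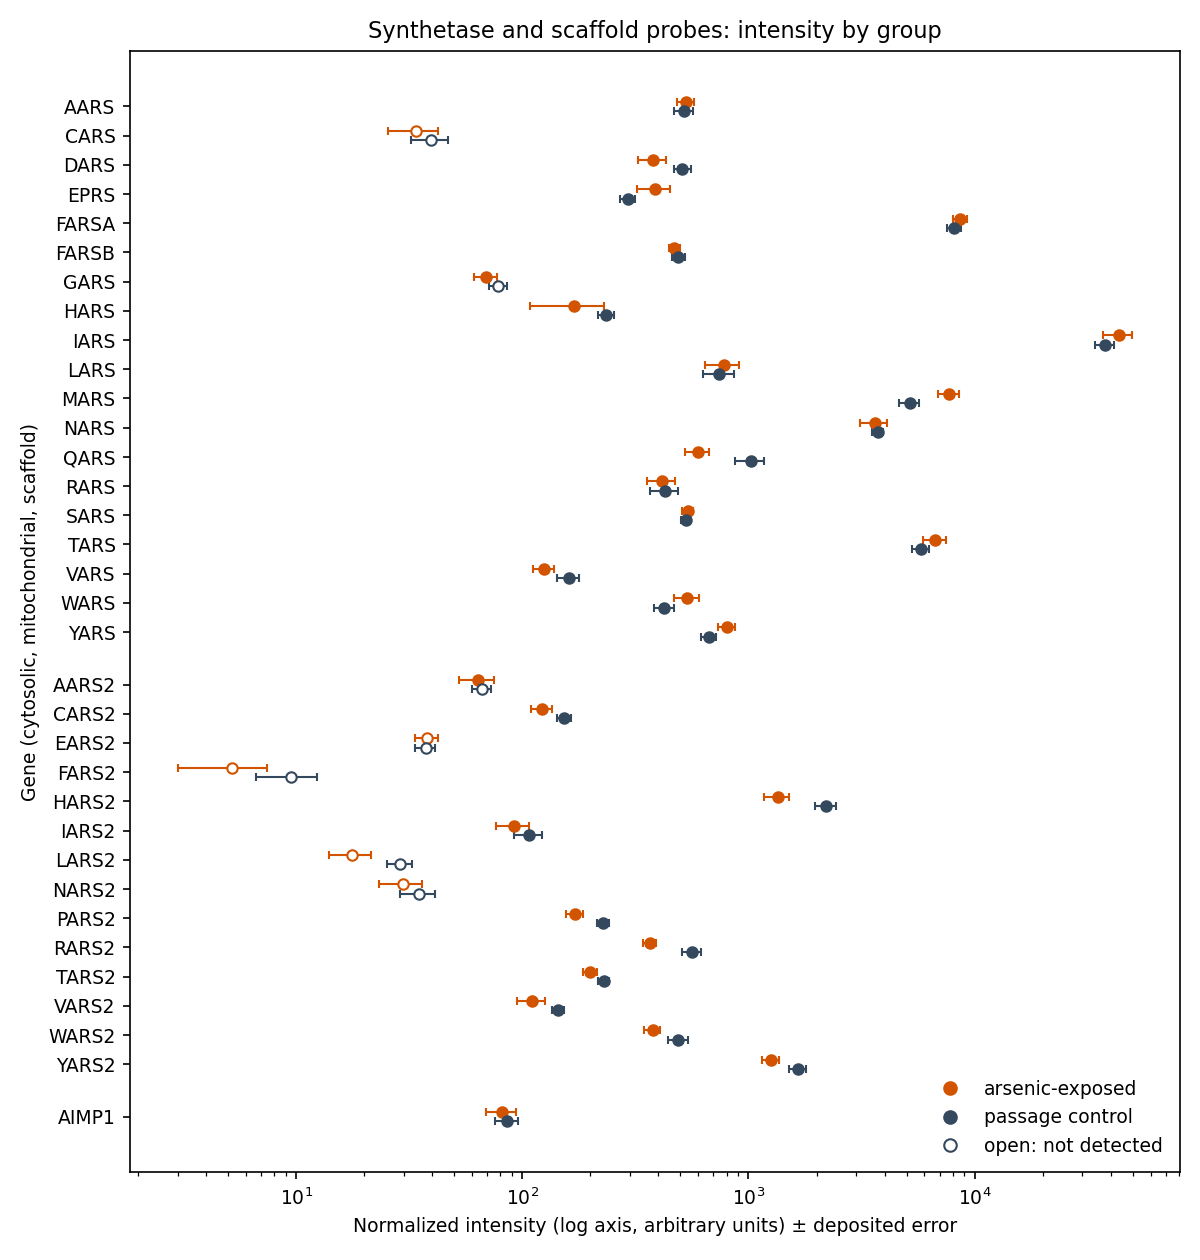
Normalized intensity (log axis, arbitrary units) of each synthetase and scaffold probe in arsenic-exposed and passage control cells, with the deposited error as bars and open points where a probe was not detected. MARS stands at 7716 against 5164. The mitochondrial genes detected in both groups all lie lower in exposed cells before centring. So do most genes, as 526 of all 7243 detected in both groups had a ratio above 0 without centring.

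Promoters of some cytosolic synthetases held a sequence that the choice of genes did not use. ATF4 and its C/EBP partners are known to bind composite elements that hold TGATGCAA, or TTGCATCA read on the other strand. These 8 letters were searched on both strands in RefSeq promoters of the build GRCh38.p14, which run from 250 bases before to 50 after an annotated transcript start. An exact match lay in 6 of the 16 cytosolic members with an entry, in none of 14 mitochondrial members and in none of 3 scaffolds. Over all 27305 genes with an entry, 1.08% had such a match. DARS, LARS, VARS, YARS, AARS2 and VARS2 had no entry in the promoter table. The stretches around the matches are shown because their genes include the member with the largest difference, MARS. Each is written 5′ to 3′ on the strand of the gene, with the matched letters in capitals.
MARS, chr12:57488044-57488091, plus strand: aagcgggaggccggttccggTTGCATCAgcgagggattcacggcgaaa
TARS, chr5:33440947-33440994, plus strand: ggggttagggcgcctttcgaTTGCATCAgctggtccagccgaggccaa
IARS, chr9:92293683-92293730, minus strand: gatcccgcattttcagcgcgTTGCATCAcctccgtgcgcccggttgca
AARS, chr16:70289666-70289713, minus strand: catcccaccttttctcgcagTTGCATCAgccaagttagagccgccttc
NARS, chr18:57621795-57621842, minus strand: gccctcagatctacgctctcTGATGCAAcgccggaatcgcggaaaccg
CARS, chr11:3057398-3057445, minus strand: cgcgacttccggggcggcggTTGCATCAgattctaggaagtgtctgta

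Positions are counted from 1 at the first base of the transcript and from -1 at the base before it. The match began at position -4 in MARS, -2 in CARS and -13 in IARS, and at 3 in TARS and 15 in NARS. AARS alone had it farther upstream, from position -187. TARS and CARS each had 2 entries in the table, and the match lay in 1 of them. The 5 of these genes detected in both groups had log2 ratios from 0.38 for NARS to 1.01 for MARS, with a median of 0.62, and CARS was not detected. The 8 cytosolic genes with an entry, no match and a ratio ran from -0.36 for QARS to 0.83 for EPRS, with a median of 0.42, so the ranges overlapped. FARSA, FARSB and SARS, which were called, had no match in this window. The match is a description of the letters and not of a bound site.

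**Figure D2:**
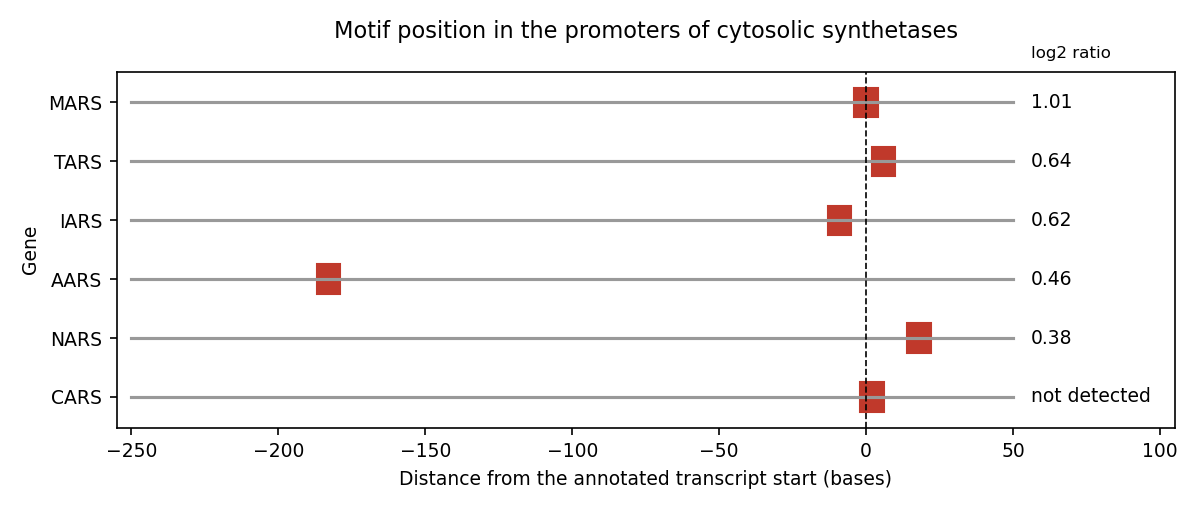
Position of the matched letters (red boxes) in the promoters of 6 cytosolic synthetase genes, with the distance from the annotated transcript start in bases on the horizontal axis and the log2 ratio of exposed over control at the right. In 5 of the 6 genes the match begins between positions -13 and 15, and in AARS it begins at -187.

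MARS is a subunit of the multisynthetase complex and charges both initiator and elongator methionine transfer RNAs. Its probe read 7716 ± 798, where ± after an intensity gives the deposited error, in exposed cells and 5164 ± 528 in control cells. The groups stood farther apart than their errors together, and the log2 ratio was 1.01 ± 0.21. Errors of ratios are here combined from the deposited errors of both groups and are not SDs. MARS exceeded 99.4% of the genes detected in both groups. In the authors' deposited table its log2 ratio was 0.83 and its p-value, adjusted as above, was 0.00627. A second MARS probe was detected in neither group, at 22.6 in exposed and 16.2 in control cells, and so gave no second reading of the difference.

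The other synthetases of the complex did not pass the adjusted p. EPRS, which charges both glutamate and proline transfer RNAs from 1 polypeptide, read 386 ± 65.8 in exposed cells and 293 ± 23.0 in control cells. That gave a log2 ratio of 0.83 ± 0.27, and the errors of the 2 groups did not overlap. IARS, the isoleucine enzyme, read 43314 ± 6371 and 37833 ± 3661, and had a log2 ratio of 0.62 ± 0.25, or of 0.34 as given in the authors' deposited table. Its intensities lay near the top of the range, and an effect of saturation was not tested. LARS, the leucine enzyme that also serves as a leucine sensor, read 776 ± 131 and 743 ± 117, and RARS, the arginine enzyme, read 414 ± 59.3 and 428 ± 59.9. Their log2 ratios were 0.49 ± 0.33 and 0.38 ± 0.29, and the readings of the groups overlapped within their errors. DARS, the aspartate enzyme, had the ratio of the median gene, at -0.0004 ± 0.24, with 379 in exposed and 510 in control cells. QARS, the glutamine enzyme, was the lowest of all members at -0.36 ± 0.27, with 595 in exposed and 1026 in control cells.

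Subunits of the complex thus spread from QARS to MARS, with 5 of 7 above 0, 1 called and a median log2 ratio of 0.49. Cytosolic synthetases outside the complex had a median of 0.46, with 9 of 10 above 0 and 3 of the 11 with an adjusted p called. The share called higher over all genes was 3.11%. The difference between the sets was not tested. Over all 7243 genes detected in both groups 50.9% lay above 0, and their median was 0.004.

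Outside the complex the phenylalanine enzyme and the serine enzyme were called. FARSA and FARSB encode the alpha and beta subunits of the cytosolic phenylalanyl-tRNA synthetase, which works as a tetramer of both. FARSA read 8662 ± 615 in exposed and 8121 ± 555 in control cells, and FARSB read 471 ± 26.7 and 490 ± 32.3. Relative to the median gene FARSA rose by a log2 ratio of 0.52 ± 0.14 and FARSB by 0.37 ± 0.13, which turned to -0.057 for FARSB without centring. The subunits differed by 0.15 ± 0.19 from each other, within the error. Their p-values from the authors' deposited table, adjusted as above, were 8.95e-05 and 0.0306. SARS, the serine enzyme, rose by 0.46 ± 0.10, from 527 ± 22.9 in control to 538 ± 28.9 in exposed cells, with an adjusted p of 0.0127 from the same deposited table. For SARS and FARSA too the readings before centring overlapped within their errors, and their uncentred log2 ratios were 0.031 and 0.093. The higher values of these 3 genes are thus relative to the median gene, whereas MARS had 0.58 without centring.

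YARS and WARS had larger ratios than the called genes other than MARS, and did not pass. YARS, the tyrosine enzyme, read 802 ± 68.9 in exposed and 671 ± 50.7 in control cells, a log2 ratio of 0.69 ± 0.17 at an adjusted p of 0.0558 from the authors' deposited table. Restricted to genes above the median intensity of detected probes in both groups, that p was 0.0380 and YARS was called as well. WARS, the tryptophan enzyme, which interferon gamma is known to induce, read 537 ± 68.7 and 424 ± 43.5, a log2 ratio of 0.77 ± 0.24. For both genes the errors of the groups did not overlap. TARS, the threonine enzyme, read 6690 ± 805 and 5765 ± 490, a log2 ratio of 0.64 ± 0.21. The alanine enzyme AARS, at 529 against 519, had 0.46 ± 0.18, and the asparagine enzyme NARS, at 3616 against 3732, had 0.38 ± 0.21. HARS, the histidine enzyme, and VARS, the valine enzyme, lay at -0.04 ± 0.53 and 0.07 ± 0.22, within their errors of the median gene. The error of HARS in exposed cells, 60.7 on an intensity of 169, was 35.9% of the reading, the largest share of any synthetase detected in both groups. GARS, the glycine enzyme, was detected in exposed cells alone, at 69.2 ± 8.04 against 78.4. Against the lowest detected control intensity its bound was 1.14-fold higher relative to the median gene, with the error not allowed for. Without centring the log2 value of that bound was -0.24.

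**Figure D3:**
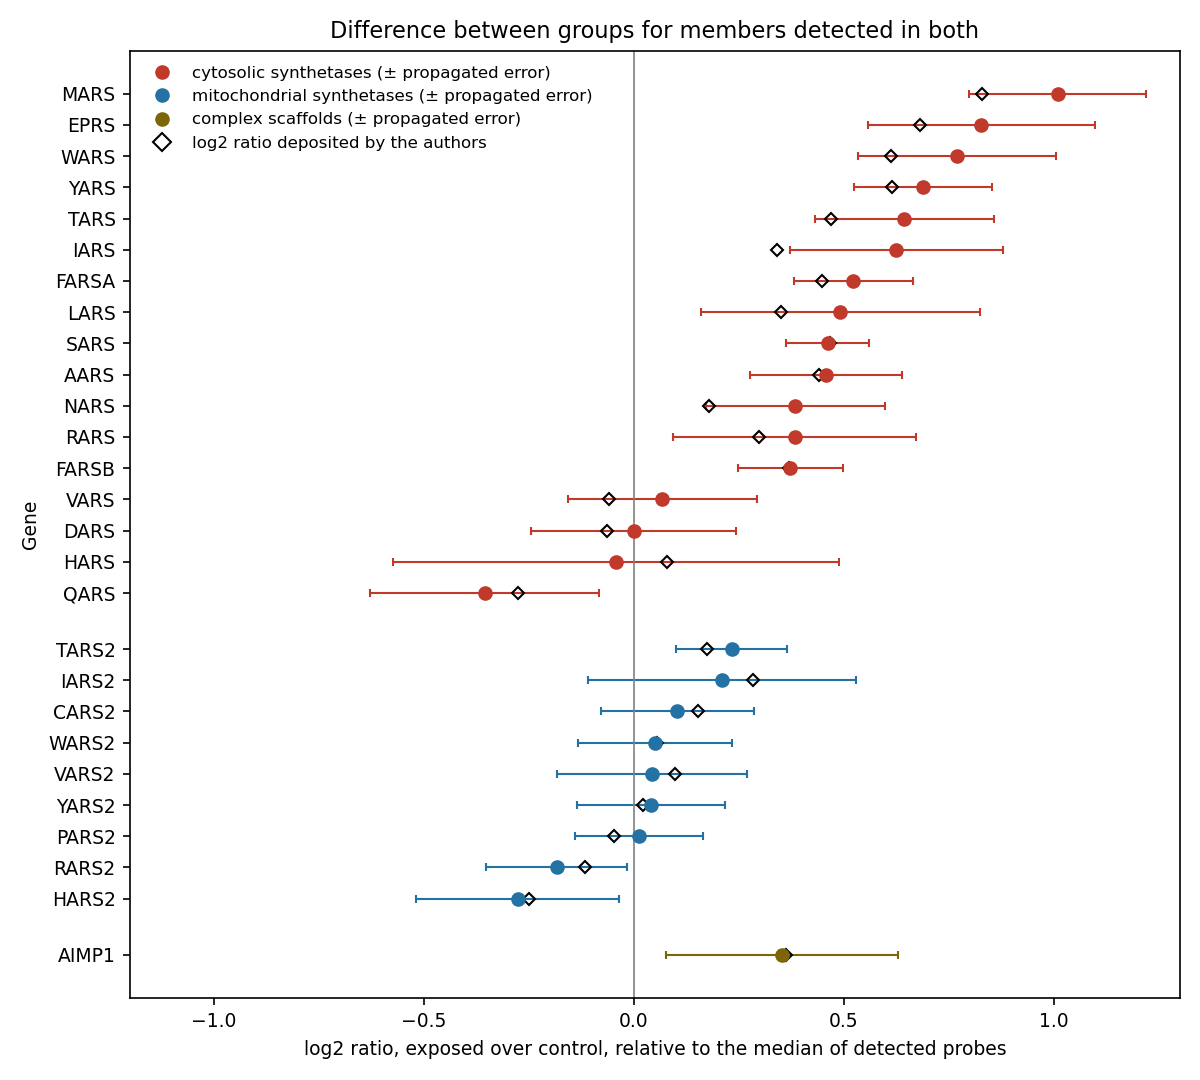
Centred log2 ratio of exposed over control for each member detected in both groups, with the error propagated from the deposited errors, and the ratio from the authors' deposited table as open diamonds. Cytosolic genes reach from -0.36 (QARS) to 1.01 (MARS), and mitochondrial genes from -0.28 (HARS2) to 0.23 (TARS2).

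Grouped by a second feature, the synthetases known mostly from mouse cells as ATF4 targets had larger ratios than the others, with an overlap. Of 12 such genes listed, 10 were detected in both groups and all 10 lay above 0, from 0.38 for NARS to 1.01 for MARS, with a median log2 ratio of 0.63. MARS and SARS were called among them and 9 of the 11 with an adjusted p did not pass. The 7 other cytosolic genes ran from -0.36 for QARS to 0.52 for FARSA, with a median of 0.07, and FARSA and FARSB were called. Among all genes 3.11% were called higher. Without centring, 9 of the 10 and 1 of the 7 lay above 0, as did 526 of all 7243 genes detected in both groups. By the ratio in the authors' deposited table the medians of these 2 sets were 0.47 and 0.08. The list of targets was drawn from general knowledge with earlier results of these arrays in view, so the split is not independent evidence.

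A ratio more than 2 propagated errors above 0 was found for 10 of the 17 cytosolic genes, for none of the 9 mitochondrial genes and for 10.1% of all genes detected in both groups. The 10 were MARS, SARS, YARS, FARSA, WARS, EPRS, TARS, FARSB, AARS and IARS. No member lay more than 2 errors below 0. How the deposited errors were made is not stated, and this count uses the same contrast that was known when the genes were picked.

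Mitochondrial synthetases stayed close to the median gene. None of the 10 with an adjusted p was called from the authors' deposited table, and none had an unadjusted p below 0.05 there. Such a p was found for 8 of 18 cytosolic genes and for 13.6% of all 7681 genes, counted in either direction. TARS2, the mitochondrial threonine enzyme, had the highest ratio, 0.23 ± 0.13, with 199.9 in exposed and 229 in control cells. HARS2, the histidine enzyme, had the lowest, -0.28 ± 0.24, from 1346 ± 173 in exposed and 2196 ± 235 in control cells. RARS2, at 367 against 561, had -0.18 ± 0.17, and IARS2, at 91.8 against 107, had 0.21 ± 0.32. The ratios of CARS2, WARS2, VARS2, YARS2 and PARS2, the cysteine, tryptophan, valine, tyrosine and proline enzymes, lay between 0.01 and 0.10, each within its error. AARS2 was detected in exposed cells alone, at 63.6 ± 11.1 against 66.4. Its bound was 1.05-fold higher relative to the median gene, with the error not allowed for, and its log2 value was -0.36 without centring. Without centring all 9 mitochondrial ratios were below 0, as were those of most genes: 526 of all 7243 genes detected in both groups lay above 0. The errors of the groups overlapped before centring for IARS2 and not for the other mitochondrial genes detected in both groups. The difference between the cytosolic and mitochondrial medians, 0.42, does not depend on centring and was 0.31 by the ratio in the authors' deposited table.

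Enzymes were paired where their names matched apart from the suffix 2. For 7 amino acids both enzymes of such a pair were detected in both groups. The cytosolic one had the higher ratio in all 7. Proline was not among them, as its enzymes are EPRS, which also charges glutamate, and PARS2. Their log2 ratios were 0.83 ± 0.27 and 0.01 ± 0.15, a wider gap than in any of the 7 pairs. Among the 7 pairs the difference of log2 ratios was largest for tryptophan, 0.72 ± 0.30 for WARS over WARS2. For tyrosine it was 0.65 ± 0.24 for YARS over YARS2. Of the 7 differences, these 2 exceeded 2 propagated errors. It was 0.57 ± 0.33 for arginine, 0.42 ± 0.41 for isoleucine, 0.41 ± 0.25 for threonine, 0.24 ± 0.58 for histidine and 0.03 ± 0.32 for valine. By the ratio in the authors' deposited table the cytosolic enzyme was higher in 6 of 7, with valine turned to -0.16 and a median difference of 0.33 in place of 0.42. These pairs share the same 2 groups of cells and are not replicates.

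AIMP1, the scaffold subunit also known as the source of the cytokine EMAPII, was the only scaffold with a probe of its own. It read 81.4 ± 12.5 in exposed and 85.8 ± 9.79 in control cells, a log2 ratio of 0.35 ± 0.28 that was not called and was -0.077 without centring. The control reading lay near the lowest detected intensity of 81.7. The probe that names EEF1E1, the scaffold also called AIMP3, together with a clone-based transcript read 320 ± 44.9 and 383 ± 44.7, a log2 ratio of 0.17 ± 0.26. The probe that names KARS, the lysine enzyme of the complex, with a clone-based transcript read 1222 ± 101 and 1349 ± 63.8, a log2 ratio of 0.29 ± 0.14. How much of these signals comes from the named gene was not tested.

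**Figure D4:**
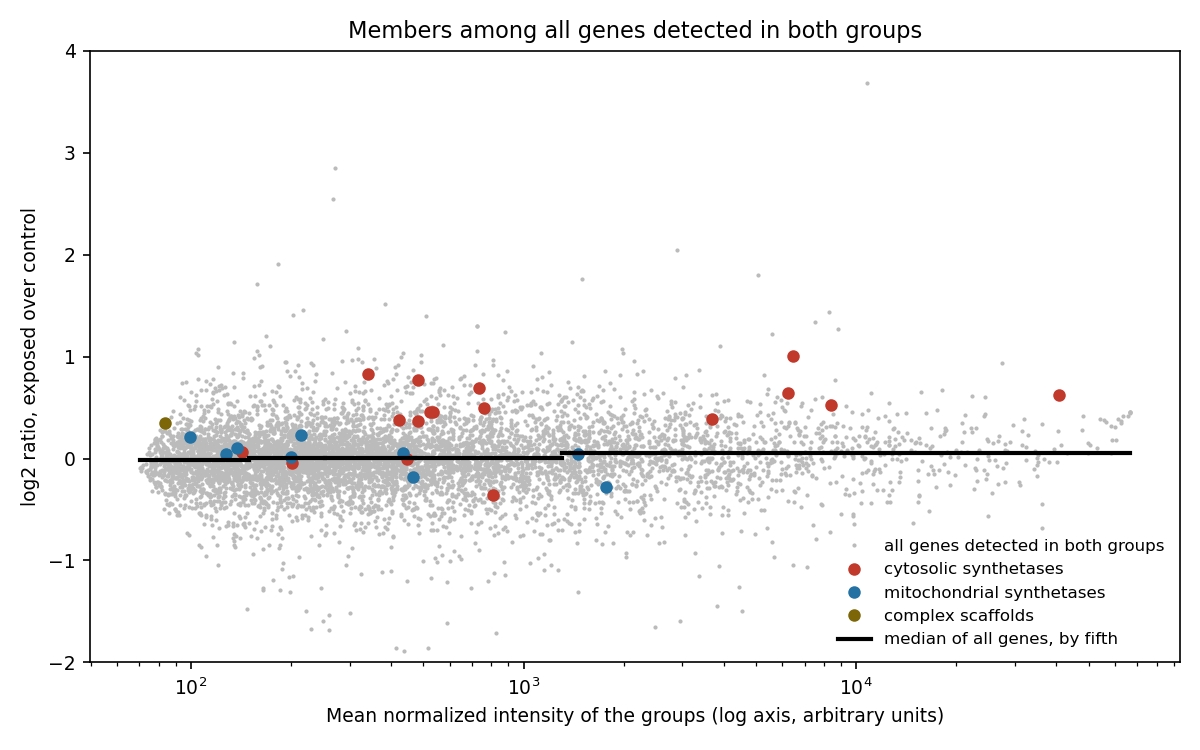
Centred log2 ratio of exposed over control against mean normalized intensity (log axis, arbitrary units) for all 7243 genes detected in both groups (grey) and the members (coloured), with the median of all genes in each of 5 equal bins of intensity as black lines. The medians of the bins run from -0.02 to 0.05, and most cytosolic synthetases lie above them.

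The ratio of the typical gene differed little with brightness. With genes in 5 equal bins of mean intensity, the median log2 ratio of all genes was -0.02 in the lowest bin and 0.05 in the highest. In the highest bin the 5 cytosolic genes had a median of 0.62 and the 2 mitochondrial genes, HARS2 and YARS2, of -0.12. In the next lower bin, 7 cytosolic genes had a median of 0.46 where all genes had 0.002, and no mitochondrial gene lay there. In the middle bin the medians were 0.38 for 3 cytosolic and -0.07 for 2 mitochondrial genes. In the 2 dimmest bins the order was the other way. There VARS and HARS, the only cytosolic gene in each, had 0.07 and -0.04, and the mitochondrial medians were 0.10 over 3 genes and 0.12 over 2 genes.

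Of 19 other genes that handle charged transfer RNA, 13 had a probe of their own and 9 had an adjusted p. TRNT1, which adds the CCA end to transfer RNAs, was called higher from the authors' deposited table at an adjusted p of 0.0325 and the other 8 did not pass. It read 67.9 ± 11.8 in exposed cells and 45.0, not detected, in control cells. Its bound was 1.12-fold higher relative to the median gene, with the error not allowed for. The call was lost when detection needed a p below 0.01. Among all genes 3.11% were called higher. TUFM, the mitochondrial elongation factor Tu, had a log2 ratio of 0.41 ± 0.13 and EEF1B2, a cytosolic exchange factor, 0.32 ± 0.12. GATB, a subunit of the mitochondrial glutaminyl-tRNA amidotransferase, had -0.33 ± 0.20, the lowest of the 7 detected in both groups. The median of those 7 was 0.21.

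Genes of the amino acid stress response give the scale of these differences. ASNS, the asparagine synthetase, which makes the amino acid and charges no transfer RNA, read 11309 against 6306, a log2 ratio of 1.27 ± 0.17. The ratio of MARS, 1.01 ± 0.21, overlapped with it within the errors. PSAT1, of serine synthesis, had 1.80 ± 0.22, CHAC1, which degrades glutathione, 1.71 ± 0.18, TRIB3, a pseudokinase that restrains ATF4, 1.34 ± 0.19, and SLC3A2, the heavy chain of amino acid exchangers, 0.67 ± 0.16. With ASNS these were the 5 called of the 9 such genes with an adjusted p, and all were higher in exposed cells. Over all genes 3.11% were called higher. DDIT3, SESN2 and SLC7A5 had 0.47 ± 0.37, 0.61 ± 0.20 and 0.59 ± 0.25 and did not pass. SLC7A11, also listed, was detected in neither group. ATF4 itself had 0.28 ± 0.49, which was -0.06 in the authors' deposited table, and did not pass.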

How the data were processed

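Total RNA of exposed and control HaCaT cells was amplified and carried a single dye, Cy5, on the arrays, per the labels' protocols. The authors deposited a normalized intensity and its error per probe and group, a detection p-value, a log2 ratio and a p-value of the comparison, per the file headers. The sources used here do not state the normalization, the test or how errors were made. The intensities deposited per sample equal those of this table within rounding, which ties each column to its group.

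A limma fit was planned for values per preparation and was not run, as there is 1 value per group. The deposited p-values were adjusted by the Benjamini-Hochberg method over all genes measured. Where a gene had several probes, the one brightest on average stood for it. Older symbols were replaced by way of the gene identifiers in the RefSeq table (GRCh38.p14), so FARSLB, SCYE1 and VARSL in the file are FARSB, AIMP1 and VARS2. Of 30968 probes 22935 named 1 symbol, and a symbol repeated for haplotype copies counted as 1. A probe labelled HARS2 carries the identifier of DTD1 and was counted as DTD1. A probe detected in 1 group alone had a bound against the lowest detected intensity of the other group, where that was on the right side of 0 after centring.

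The members and lists were chosen with earlier results of these data known. Every member is accounted for, and of the other lists the genes called and ATF4 are named. TUFM, EEF1B2, GATB, the marker genes and the uncalled stress genes other than ATF4 are named outside that rule, after their values were seen. All called stress genes are given. Alternatives for centring, ratio, normalization, offset, probe choice and filters were tried. The code was tested on simulated data. The number of arrays limits the precision. Python 3.11.15, numpy 2.4.6 and pandas 2.3.3 were used.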

Additional observations from a re-analysis of the deposited data

Results flagged for a closer look

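A signal drew attention in a probe outside the comparison of members. The probe that names MARS2, the mitochondrial methionine enzyme, together with the clone-based transcript AC011997.1 read 647 ± 103 in exposed cells and 514 ± 48.3 in control cells. The difference of 133 exceeded its propagated error of 114, and the centred log2 ratio was 0.76 ± 0.27, or 0.48 in the authors' deposited table, where the unadjusted p was 0.188. How much of the signal comes from MARS2 was not tested.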

How the results depend on the processing

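Centring was the choice that moved values most. Without it the median log2 ratio was 0.031 for cytosolic synthetases, -0.39 for mitochondrial synthetases and -0.077 for the scaffold AIMP1, and the ratios of MARS, FARSA and SARS were 0.58, 0.093 and 0.031, while FARSB turned to -0.057. These shifts follow from the construction of the alternative, which takes away 1 constant. Under the other alternatives the cytosolic median ran from 0.37 to 0.48 and the mitochondrial one from -0.07 to 0.06. Their difference ran from 0.31 to 0.55 over 11 alternatives. The calls among cytosolic genes numbered 3 to 5, with FARSB lost when symbols were taken as deposited, because the file names it otherwise, and YARS gained under the filter on dim genes. The 1 call among other transfer RNA genes, TRNT1, fell to 0 under that filter and at a detection p below 0.01. The calls over all genes numbered 356 to 437, and those among mitochondrial genes and scaffolds 0 throughout. With the looser letters TGATGNAA on both strands, which contain the exact motif, the members with a match rose from 6 to 8, beside 4.46% of all genes. Entering bounded genes, probes shared with clone-based symbols, symbols as deposited and leaving out IARS were chosen after the data were examined. No paired analysis was possible because each group has 1 combined value and the columns carry no replicate number, and leaving out a replicate could not be done for the same reason.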

Other observations

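Position on the chromosomes sets some members beside each other. HARS and HARS2 lie head to head on chromosome 5, and their promoter windows in the RefSeq table share 184 bases. HARS had a log2 ratio of -0.04 ± 0.53 and HARS2 of -0.28 ± 0.24, the lowest of the mitochondrial genes. MARS and DDIT3, which encodes the stress transcription factor CHOP, converge on opposite strands of chromosome 12, where their annotated ends overlap by 65 bases. DDIT3 read 3875 ± 562 in exposed and 3781 ± 785 in control cells, a log2 ratio of 0.47 ± 0.37 that did not pass. Whether the MARS probe lies in the shared stretch was not tested.

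The synthetases fall into 2 structural classes by the fold of their active site. The 8 class I genes detected in both groups, without the fused EPRS, had a median log2 ratio of 0.56 and a range from -0.36 to 1.01. The 8 class II genes had a median of 0.42 and a range from -0.04 to 0.64. The ranges overlapped. Of 8 class I and 9 class II genes with an adjusted p, 1 and 3 were called higher, beside 3.11% of all genes.

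The probe that carries the symbol HARS2 with the identifier of DTD1, the D-tyrosyl-tRNA deacylase, read 265 ± 25.6 in exposed and 399.8 ± 32.7 in control cells. Its log2 ratio was -0.16 ± 0.18, so a summary by the deposited symbol would mix an editing enzyme with the mitochondrial histidine enzyme. The letters TGACGTCA, the core of the cyclic AMP response element, were found in the promoters of 1 member, AIMP2, and of 2.25% of all genes.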
